A study of Saccharomyces cerevisiae with 255 samples.

Results

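The 32 genes described here code for the subunits of the yeast proteasome. They were chosen by name, as the PRE, PUP, SCL1, RPT and RPN genes of its core and regulatory particles, from 6629 genes counted in each library of an RNA tagging series in Saccharomyces cerevisiae. In RNA tagging, an RNA-binding protein (RBP) is fused to Pup-2, a poly(U) polymerase of Caenorhabditis elegans, so that mRNAs the fusion meets in the cell gain Us at their 3′ end. The tag is another protein than the yeast subunit gene PUP2, which is among the 32. The 255 libraries come from BY4741 cells grown to exponential phase in synthetic medium with glucose, with the fusion at the C-terminus of the endogenous RBP gene. They fall into 109 libraries of 34 intact RBP fusions, 127 libraries of 50 groups in which part of the fused RBP was deleted, and 2 kinds of control. The dPup2 controls carry a catalytically dead Pup-2 on Puf3, Puf4 or Puf5 (11 libraries), and the C-Swat controls carry these 3 RBPs without a tag (8 libraries). The results below turn on intact Pub1 (4 libraries), Sro9 (2), Nsr1 (4), Rie1 (3), Mrn1 (3) and Puf4 (4), on the Pub1 deletions ΔIDR_1, Δ2, Δ4, ΔIDR_3 and ΔT1 (2 libraries each), ΔIDR_2 (3) and T2, and on deletions of Mrn1, Nab6, Puf3 and Puf4. The T2 libraries carry the titles Trc6 (2 libraries) or Trc9 (2 libraries), which were kept apart, and every deletion strain still carries the Pup-2 fusion. The labels do not give the residues removed. Some titles carry a clone number: the 2 libraries of ΔIDR_3, of Δ4 and of ΔT1 carry different ones. Those of T2 titled Trc9 carry the same one. Beyond these numbers, nothing in the labels says that libraries of 1 strain came from separate cultures. The p-values measure the spread between these libraries.

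The proteasome is the protease that breaks down proteins marked with ubiquitin. Its core particle is a barrel of alpha rings, which gate the entrance, around beta rings, of which some subunits carry the protease sites. The regulatory particle caps the barrel: a base of RPT ATPases unfolds the substrate and threads it in, with RPN scaffold and ubiquitin-receptor subunits beside them, and a lid of RPN subunits removes the ubiquitin chain. In yeast, the transcription factor Rpn4 binds a shared promoter element of these genes, called PACE, and Rpn4 is itself a short-lived substrate of the proteasome. Pub1 is an abundant poly(A)- and poly(U)-binding protein.

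Libraries held 93564 to 5768639 reads (median 1045022), of which 512 to 39937 (median 6515) came from the 32 genes, and 10 libraries held fewer than 200000. None of the 316 pairs of libraries of 1 strain were identical, and their counts differed by more than sampling noise (chi-square per degree of freedom 1.83 or more). Of the marker genes of BY4741, MET17 had 0 reads in every library, LEU2 at most 6.69 RPM (reads per 1000000 reads of the library) and the alpha-factor gene MF(ALPHA)1 at most 13.4 RPM, against 238 to 3514 RPM for the a-factor gene MFA1. HIS3, of which BY4741 carries a mutant allele, was counted at 117 to 670.1 RPM in every library, and URA3 at up to 78.5 RPM in C-Swat and 11.2 RPM elsewhere. The proteasome mRNAs summed to 4816 to 9059 RPM (median 6035).

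A read was called tagged when it carried 4 to 13 Us, and the tagged share of a gene is its tagged reads as a percentage of all its reads in the same library. Among the intact strains, Pub1 gave proteasome mRNAs the highest tagged share, and the controls gave almost none. Over the 32 genes together, 1081 of 20194 reads were tagged in Pub1, or 5.35% (exact 95% binomial interval 5.05 to 5.67, for counting error only), with 5.01%, 5.40%, 5.56% and 6.54% in its libraries. In dPup2, 10 of 84906 reads were tagged, or 0.0118% (0.00565 to 0.0217), with a median of 0.00619% and a highest library of 0.0427%. C-Swat was at the same level, with 0.011% (0.00443 to 0.0227). Every Pub1 library thus lay above every control library. Over all genes, however, 22.4% of the reads were tagged in Pub1 (19.8% to 24.3% by library), and 21 of the 32 genes had a lower share than the median expressed gene (2.34%, over genes of at least 16 RPM).

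The tagged share was uneven within the complex. 5 genes had 15% or more of their reads tagged in Pub1 and gave 72.7% of the tagged reads of the complex from 19.7% of its reads. 6 genes lay between 2% and 8%, and 21 lay under 2%. No gene lay between 7.60% (RPT2, a base ATPase) and 15.5% (PRE1). Of all expressed genes, 17.6% were at 15% or more and 45.5% under 2%. The 5 high genes come from 3 different parts of the particle. PRE3, PRE4 and PRE1 code for beta-ring subunits, PRE8 for an alpha-ring subunit and RPN1 for the scaffold of the base that docks ubiquitin-like domains. The beta ring as a whole had 11.3% tagged reads (10.5 to 12.1), against 4.92% for the non-ATPase base (4.10 to 5.83), 3.70% for the alpha ring (3.18 to 4.28), 2.74% for the base ATPases (2.18 to 3.41) and 1.27% for the lid (0.959 to 1.65). This order rests in part on single genes: RPN1 gave 105 of the 124 tagged reads of the non-ATPase base, and PRE8 gave 133 of the 175 of the alpha ring. By the median gene, the beta ring had 6.69%, the base ATPases 2.11%, the non-ATPase base 1.17%, the alpha ring 1.14% and the lid 1.06%.

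**Figure D1:**
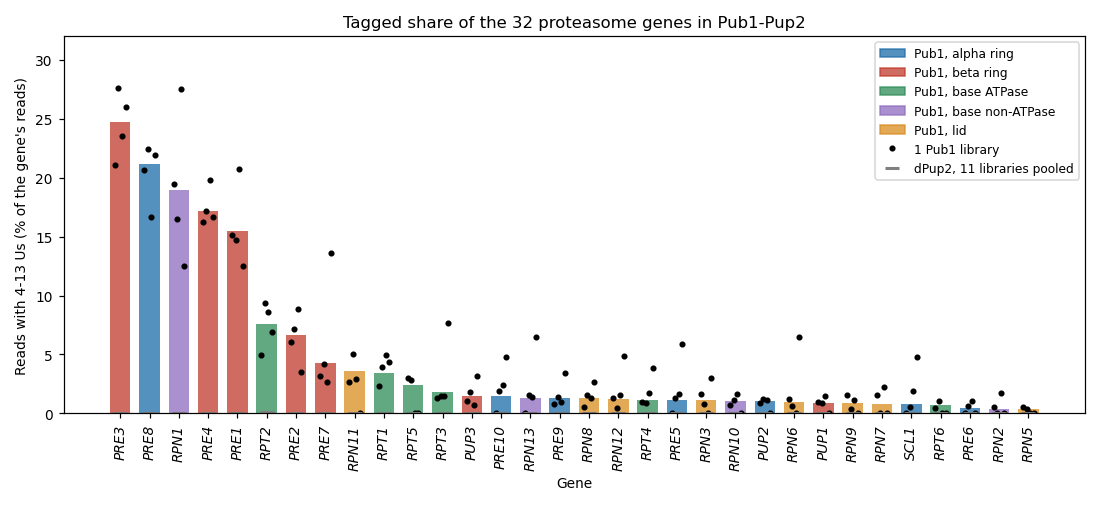
Tagged share (% of a gene's reads with 4 to 13 Us) of each of the 32 genes in Pub1, ordered by share and coloured by part of the proteasome. Bars pool the 4 libraries, points are single libraries, and grey marks are the 11 dPup2 libraries pooled, which lie on the baseline. 5 genes stand at 15.5% to 24.7% and the other 27 at 7.60% or less.

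The T-richest stretches of 30 nt within 150 nt after the stop codon (genome R64, sense strand, counted from the codon) are shown for the high genes, because Pub1 is a poly(U)-binding protein, and for 3 of the genes with the lowest share. Capitals mark a run of 5 or more T. These windows lie downstream of the coding sequence, and no UTR annotation was used.
PRE3, 24.7% tagged, chrX:436029-436058, plus strand: tttctcTTTTTctcttcgctttacgctttt
PRE8, 21.2% tagged, chrXIII:85867-85896, minus strand: TTTTTTTctaattattccagtattactatt
RPN1, 18.99% tagged, chrVIII:161634-161663, minus strand: tatttatatagttgtacaTTTTTTTctctt
PRE4, 17.2% tagged, chrVI:249019-249048, minus strand: ttcattaaatactcattttaTTTTTatttt
PRE1, 15.5% tagged, chrV:178514-178543, plus strand: taaagttattatagTTTTTTcatccgttat
PRE6, 0.457% tagged, chrXV:256216-256245, plus strand: ttatatcatttaatacgatctcatgTTTTT
RPN2, 0.413% tagged, chrIX:217743-217772, minus strand: ttgaattattctgccaggattagctacttt
RPN5, 0.386% tagged, chrIV:192296-192325, plus strand: tccggttttgattttaaatctgttactaat
A run of 6 or more T anywhere in these 150 nt was present after 4 of the 5 high genes (not PRE4), 2 of the 6 intermediate genes and 5 of the 21 low genes. The same run followed 59.1% of all expressed genes with a share of 15% or more, 25.9% of those under 2% and 36.0% of all 4237 searched. This feature was chosen after the shares were seen. A run of T in the window is a description, not a binding site.

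PRE3 (YJL001W, chromosome X, 435163 to 435926) codes for the beta subunit with the caspase-like site. Its tagged share was 21.1%, 27.6%, 23.5% and 26.0% in Pub1 (83 of 394, 139 of 504, 28 of 119 and 20 of 77 reads), a mean of 24.5 ± 2.85% (SD, n = 4), against 0 of 3400 reads in dPup2. A floor of 3 reads over the dPup2 libraries puts Pub1 at least 279.7-fold higher. All 4 libraries were high, and none overlapped the controls.

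PRE8 (YML092C, chromosome XIII, 85987 to 86739), an alpha-ring subunit, had 20.7%, 22.5%, 16.7% and 22.0% tagged reads in Pub1, a mean of 20.4 ± 2.62% (SD, n = 4), against 0 of 2162 reads in dPup2, at least 153-fold higher. RPN1 (YHR027C, chromosome VIII, 161730 to 164711) had 19.5%, 16.5%, 27.5% and 12.5% in Pub1, the last from 2 of 16 reads, against 0 of 1847 reads in dPup2, at least 117-fold higher. PRE4 (YFR050C, chromosome VI, 249066 to 249866), a beta subunit without a protease site, had 16.3%, 17.1%, 19.8% and 16.7% in Pub1, against 1 of 2760 reads in dPup2, or 0.0362%. PRE1 (YER012W, chromosome V, 177835 to 178431), another beta subunit without a site, spanned 12.5% to 20.7% in Pub1, against 0 of 3751 reads in dPup2, at least 194-fold higher. For these 4 genes as for PRE3, the lowest Pub1 library lay above the highest dPup2 library. The Pub1 ranges of PRE8, RPN1, PRE4 and PRE1 overlapped one another, while that of PRE3 lay above those of PRE4 and PRE1.

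The 6 intermediate genes were RPT2 (7.60%), PRE2 (6.69%), PRE7 (4.31%), RPN11 (3.61%), RPT1 (3.43%) and RPT5 (2.42%), all pooled over the 4 libraries. RPN11 codes for the deubiquitinase of the lid, PRE7 for a beta subunit without a protease site and the RPT genes for base ATPases. PRE7 stood at 13.6% in the shallowest library and at 2.67% to 4.17% in the others. The 21 low genes ran from 1.79% (RPT3) down to 0.386% (RPN5) and held the RPN genes other than RPN1 and RPN11 and the alpha-ring genes other than PRE8.

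The genes with the lowest share sat near the controls. RPN5, a lid subunit, had 1 of 173, 1 of 249, 0 of 68 and 0 of 28 reads tagged in Pub1, or 0.386% pooled (0.0468 to 1.39), against 1 of 2503 reads in dPup2. RPN2, the other large scaffold of the base, had 1 of 179, 0 of 226, 1 of 57 and 0 of 22 reads in Pub1, or 0.413% pooled (0.0501 to 1.49), against 0 of 2354 in dPup2. Both overlapped the controls, since Pub1 libraries with 0 tagged reads were among them. RPN1 and RPN2, which have similar repeats and places in the base, were thus at opposite ends of the list, with 105 of 553 tagged reads for RPN1.

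Expression did not separate the classes by range: the 32 genes averaged 108 to 329 RPM in Pub1. The 21 low genes together had 0.722%, 1.01%, 1.16% and 2.85% tagged reads in Pub1 libraries 1 to 4, and the 5 high genes 18.5%, 20.4%, 21.7% and 19.3%. The highest value of the low class came from the shallowest Pub1 library, at 241734 reads against 1319709 in the deepest, and the part of depth in this was not tested. Tagged reads of the 32 genes carried 7.83 Us on average in Pub1, close to the 7.76 Us of all genes.

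In the test of the tagged share (edgeR quasi-likelihood, with all reads of the gene as offset, on genes with at least 10 tagged reads in the fit), 15 of the 32 genes were tested and all 15 were higher in Pub1 than in dPup2, while the other 17 had too few tagged reads. Of all 1488 genes tested, 99.9% were called higher, so this count says nothing particular about the 32: a gene reached 10 tagged reads only through Pub1. Log2 differences were 9.20 ± 0.32 for PRE3 (SE, adjusted p = 1.64e-30), 8.60 ± 0.38 for PRE1, 8.29 ± 0.39 for PRE8, 7.96 ± 0.44 for RPN1 and 7.61 ± 0.34 for PRE4 (adjusted p = 2.79e-29), and fitted values against 0 reads depend on the prior count. The other 10 called genes ranged between 3.498 (RPN10, a ubiquitin receptor) and 7.39 (PRE2, the beta subunit with the chymotrypsin-like site), and the median was 5.71, against 7.08 over all genes tested. Without the deepest Pub1 library (library 2) only 8 genes reached the filter and were called. Measures that use no such filter placed the complex on different sides of the expressed genes. Every Pub1 library lay above every dPup2 library for 15 of the 32 genes (46.9%), against 32.8% of 4275 expressed genes. This needs a tagged read in each library, so it is easier to meet for genes with more reads. The 32 averaged 108 to 329 RPM, while expressed genes start at 16 RPM, and the shares were not matched for level. The modification level, the sum of U length times RPM over 4 to 13 Us divided by the gene's RPM, was above 0.15 for 14 of the 32 genes (43.8%), against 55.5% of expressed genes, and for 11 to 17 when single Pub1 libraries were left out.

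Genes that work with the proteasome but are not among its subunits also covered the whole range in Pub1. UMP1, the chaperone of core assembly, had 15%, 17.8%, 12.8% and 18.1% tagged reads in Pub1, against 0 of 2988 in dPup2, at least 160.5-fold higher. CDC48, the unfoldase that hands substrates to the proteasome, had 37.5%, 43.5%, 41.8% and 50% in Pub1, against 0 of 4882 in dPup2. SEM1, a small lid subunit outside the name rule, had 1.74%, 2.55%, 2.80% and 7.27% in Pub1, against 0 of 3628 reads in dPup2. RPN4, the transcription factor, had 0 of 139 reads in Pub1, which allows a share of up to 2.16%, against 1 of 484 in dPup2. Of 25 such genes listed with earlier results known, 10 were tested and 10 were higher (edgeR, background 99.9%), from 4.75 (PBA1, a chaperone of core assembly) and 5.04 (NAS2, a chaperone of the base) to 7.52 (UBP6, a deubiquitinase docked on the base), 8.40 (UMP1) and 10.58 (CDC48) on the log2 scale.

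Among the other RBPs, the tagged share of proteasome mRNAs was next highest in Sro9, Nsr1, Rie1 and Mrn1, each well below Pub1. Sro9, a La-motif protein, had 1.13% and 0.391% tagged reads over the 32 genes (libraries of 2361683 and 93564 reads), against 10.2% of the reads of all genes. Nsr1, a nucleolar protein, had 0.41%, 0.807%, 1.10% and 1.37%, against 1.47% over all genes, and Rie1 had 0.27% to 0.752% in 3 libraries, against 1.09% over all genes. Mrn1 had 0.229% pooled (0.168 to 0.306), against 0.8655% over all genes. The median member was at 0.61% in Nsr1, 0.48% in Rie1 and 0.15% in Mrn1, above the median expressed gene (0.166%, 0.236% and 0%). In Sro9 the median member was below, at 0.99% against 1.10%. Expressed genes start at 16 RPM, and a gene with few reads often has 0 tagged reads. These medians were not matched for level, so they favour genes with more reads. The other 29 strains were below 0.13% over the 32 genes. Of these, Yhc1, Psp2, Nam7, Nab6, Puf4, Scp160 and Bfr1 also had every library above the highest dPup2 library (0.0427%), with pooled shares of 0.055% to 0.128%, and Dbp1, Nam8, Puf1 and Rat1 had 0 tagged reads. In each strain from Yhc1 to Bfr1 the pooled share over all genes was higher, at 0.147% (Psp2) to 0.689% (Nab6). Single shallow libraries gave some of the higher points: the Slf1 library at 1.16%, with 206879 reads, stood beside others at 0.0114% and 0.0366%, and its share over all genes was raised too, at 1.12%.

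**Figure D2:**
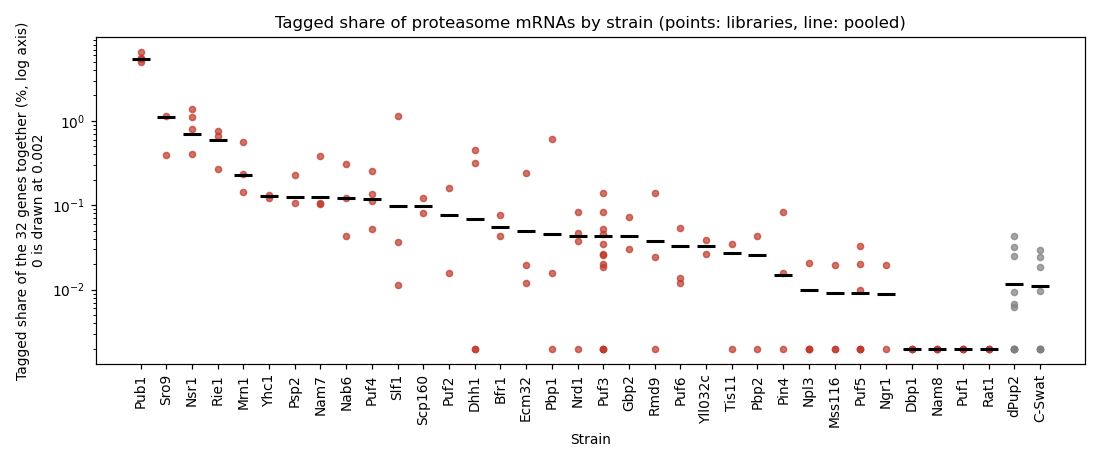
Tagged share of the 32 genes as a whole (%, log axis) in each of the 34 intact RBP strains and, at the right in grey, the dPup2 and C-Swat controls. Points are libraries, lines pool a strain's libraries, and a share of 0 is drawn at 0.002. Pub1 stands at 5.35%, and the controls at 0.0118% and 0.011%.

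Few single genes reached 10 tagged reads in these strains, which they could do only through the RBP strain, so that the calls below follow largely from that filter. All strains were set against the same dPup2 libraries. In Sro9, PRE1 had 17 of 654 and 0 of 17 reads tagged, PRE3 10 of 603 and 0 of 22, PRE2 14 of 746 and 0 of 21, and RPT1, a base ATPase, 10 of 373 and 0 of 12, each against 0 tagged reads in dPup2. These 4 were the tested members and all were higher (edgeR, PRE1 6.11 ± 0.89, adjusted p = 1.1e-11, against a background of 99.6% of 723 genes). The tagged reads all came from library 1. None of the 4 was called without that library or with DESeq2, which gave adjusted p-values of 0.31 to 0.36. Every Sro9 library lay above every dPup2 library for 2 of the 32 genes, against 17.6% of expressed genes.

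In Nsr1, PRE9, the alpha subunit that yeast can live without, had 0.448%, 1.69%, 3.41% and 4.13% tagged reads (2 of 446, 6 of 355, 3 of 88 and 5 of 121), against 1 of 4951 in dPup2 (5.33 ± 0.76, adjusted p = 3.6e-12). PRE3 had 0.802%, 2.09%, 1.85% and 2.94% in Nsr1, against 0 of 3400 in dPup2 (5.24 ± 0.88, adjusted p = 3.85e-09, at least 16.5-fold higher). These were the 2 members tested, against a background of 99.4% of 360 genes called. All 4 Nsr1 libraries lay above the controls for 6 of the 32 genes (18.8%), against 9.53% of expressed genes. In Rie1 this held for 5 genes, against the same 9.53%, and in Mrn1 for 1, against 5.84%. As in Pub1, this measure is easier to meet for genes with more reads. In Mrn1, PRE4 had 3.19%, 2.33% and 2.13% tagged reads (13 of 407, 4 of 172 and 1 of 47), against 1 of 2760 in dPup2 (4.99 ± 0.58, adjusted p = 6.4e-08, background 96.4%). In Puf4, RPT5, a base ATPase, had 6 of 332, 1 of 251, 3 of 165 and 1 of 490 reads tagged, against 0 of 2192 in dPup2 (4.25 ± 0.93, adjusted p = 0.0025, background 93.6%). When reads with 14 to 16 Us were also counted as tagged, none of these calls in Sro9, Nsr1, Mrn1 and Puf4 held. Reads of 16 Us made up 1.20% to 21.0% of each library. Of the reads of the 32 genes they were 6.60% in dPup2, 6.18% in Sro9 and 5.57% in Nsr1. Because the dead control carries as many, the loss of the calls under this setting cannot decide whether they are sound.

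RPT5 is 1 of 3 members (with SCL1 and RPT6) with the 9-nt motif TGTANANTA on the sense strand in the first 300 nt downstream of the stop, set beside 8.66% of 5944 genes. Puf4 is known to bind this motif, and it is shown in capitals.
RPT5, 113 nt after the stop, chrXV:546436-546465, plus strand: tatggctaatTGTATACTActtattatttg
The letters TGTANATA stood in the same window of 6 members (16.4% of genes).

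Deleting parts of Pub1 lowered the tagged share of the high genes to differing degrees. ΔT1 was closest to intact Pub1, at 3.02% over the 32 genes (2.82% and 3.40% by library). ΔIDR_3 had 1.48% (0.719% and 1.91%), Δ2 1.28%, Δ4 0.552%, ΔIDR_1 0.514%, ΔIDR_2 0.141%, T2 titled Trc6 0.126% and T2 titled Trc9 0.0234%, against 5.35% in intact Pub1. Over all genes the same strains had 21.0%, 6.95%, 8.94%, 9.07%, 3.24%, 0.345%, 2.15% and 0.0436%. On the proteasome mRNAs the Δ2 libraries had 1.27% and 1.28% and the Δ4 libraries 0.374% and 0.806%. The pooled share over all genes was close in Δ2 and Δ4, but the median expressed gene had 1.21% in Δ2 and 0% in Δ4. The Δ2 libraries held 2683400 and 3431594 reads and the Δ4 libraries 720850 and 1037853. A gene with few reads often shows 0%, so these medians cannot tell whether the gap was particular to the proteasome genes. Among genes with at least 10 tagged reads over both strains, the median log2 difference was 1.33 for members and 1.34 for all genes.

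**Figure D3:**
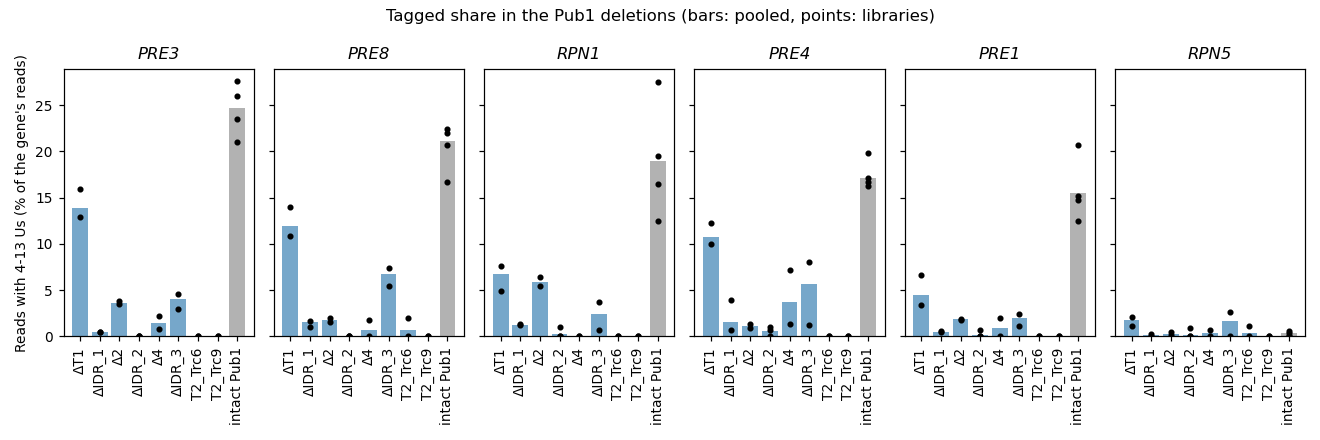
Tagged share (% of the gene's reads) of PRE3, PRE8, RPN1, PRE4, PRE1 and RPN5 in the 8 groups of Pub1 deletions and, in grey at the right of each panel, in intact Pub1. Bars pool libraries and points are libraries. RPN1 has 5.90% in Δ2 and 0 tagged reads in Δ4, PRE4 1.13% in Δ2 and 3.72% in Δ4.

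PRE3 shows the order by library. Its share was 15.94% and 12.96% in ΔT1, against 21.1% to 27.6% in the 4 intact Pub1 libraries, a difference of -0.79 ± 0.23 on the log2 scale (edgeR, adjusted p = 0.004). It was 2.96% and 4.59% in ΔIDR_3, 3.813% and 3.499% in Δ2, 0.82% and 2.20% in Δ4, 0.508% and 0.518% in ΔIDR_1, and 0 in all libraries of ΔIDR_2 and of both T2 titles. No deletion library overlapped intact Pub1. ΔIDR_2 had 0 of 738 reads, at least 60.7-fold lower, and T2 titled Trc9 had 0 of 637 reads, at least 52.4-fold lower.

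RPN1 and PRE4 did not follow PRE3. RPN1 had 6.41% and 5.51% tagged reads in Δ2 (27 of 421 and 30 of 545), 4.90% and 7.66% in ΔT1, and 0 of 118 and 0 of 81 in Δ4, against 12.5% to 27.5% in intact Pub1. The 0 of 199 reads in Δ4 allow a share of up to 1.51%. PRE4 had 0.897% and 1.31% in Δ2 and 1.35% and 7.19% in Δ4, against 16.3% to 19.8% in intact Pub1. All these libraries were below every intact Pub1 library.

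Set directly against each other, a comparison chosen after these values were seen, RPN1 was at least 3.91-fold higher in Δ2 than in Δ4 (edgeR adjusted p = 0.0003), and RPT3, PUP1 and RPT1 were also higher (adjusted p = 0.033 to 0.039). PRE4 was lower in Δ2, with a log2 difference of -1.72 ± 0.68 (adjusted p = 0.031), and the 2 Δ4 libraries differed, with 11 of 153 and 3 of 223 reads. The other 16 of the 21 genes tested did not pass. The background was 32.5% of 1432 genes called higher in Δ2 and 12.2% lower, the median log2 difference was 1.33 over the 21 members tested and 1.34 over all genes tested, and the 21 tested genes had to reach 10 tagged reads over both strains.

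Called counts against intact Pub1 were near the background in some deletions and below it in Δ2, ΔIDR_3, ΔIDR_1 and Δ4. A gene needed 10 tagged reads over both strains, so members of low share in intact Pub1 could enter with the deletion's reads. Such genes have little room to be called lower, and counts below the background are not read as a result about the members. In Δ2 the median log2 difference was -0.55 over the members tested and -1.41 over all genes tested. The share was lower for 14 of 14 genes tested in T2 titled Trc9 (background 99.0%), 14 of 15 in ΔIDR_2 (98.3%), 12 of 14 in T2 titled Trc6 (88.1%), 13 of 21 in ΔIDR_1 (86.8%), 11 of 17 in Δ4 (80.6%), 10 of 30 in Δ2 (57.2%), 7 of 22 in ΔIDR_3 (56.8%) and 5 of 27 in ΔT1 (20.4%), and higher for none. All 5 high genes were lower in every deletion, except PRE4 in ΔT1, with 12.3% and 9.95% (-0.67 ± 0.27, adjusted p = 0.064). RPN5, low in intact Pub1 already, had 1.11% and 2.13% in ΔT1, against 0% to 0.578% in intact Pub1 (1.95 ± 1.23, adjusted p = 0.28). The 5 calls in ΔT1 fell to 3 without its library 2 and to 2 without intact Pub1 library 2, and limma called none of them. The counts became 7 in T2 titled Trc6 without its library 1, 7 in ΔIDR_1 without its library 2, and 8 in T2 titled Trc9 and in ΔIDR_2 without intact Pub1 library 2. All these comparisons share the 4 intact Pub1 libraries.

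Outside Pub1, few deletions had a member called for the tagged share. PRE4 had 0 of 281 and 0 of 55 tagged reads in Mrn1 ΔIDR, and 0 of 100 and 0 of 203 in Mrn1 ΔRBD, against 13 of 407, 4 of 172 and 1 of 47 in intact Mrn1 (edgeR adjusted p = 0.021 and 0.019, backgrounds 61.0% and 58.8%). These are at least 3.22-fold and 2.90-fold lower. RPT5 had 0 of 162, 172, 183 and 112 reads in the 4 libraries of Puf4 ΔRBD, against 6 of 332, 1 of 251, 3 of 165 and 1 of 490 in intact Puf4 (adjusted p = 0.03, background 81.5%), at least 1.86-fold lower. The other Puf4 deletions were not called for RPT5. T1, T4 and T4&ΔIDR had 0 of 576, 0 of 334 and 0 of 250 reads tagged, T3 had 1 of 325, 6 of 357 and 2 of 142, and the log2 differences from intact Puf4 were -0.38 ± 1.28 in T2 and 1.61 ± 1.13 in ΔIDR (adjusted p = 0.95 and 0.56). In Puf3 T5 the share of RPT2 was higher, at 1.77% pooled over 3 libraries between 0% and 2.15%, against 1 of 2215 reads in intact Puf3 (3.79 ± 0.92, adjusted p = 0.0026, background 11.6%), and the groups overlapped.

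The level of proteasome mRNAs, from all reads of a gene whatever its tag, had its highest strain median in Nsr1. The 32 genes summed to 7759 to 9059 RPM in the 4 Nsr1 libraries (median 8350), against 5103 to 6582 RPM in the 11 dPup2 libraries (median 5905), with no overlap. A sum above every dPup2 library was not limited to Nsr1. Intact Yhc1 had 6607 to 6793 RPM, and some deletion groups were also above, such as Scp160 Δ4 (7608 to 7707) and Pub1 T2 titled Trc9 (7046 to 7563). All 32 had a positive log2 difference, with a median of 0.41, against -0.03 over the 5130 genes tested. Of these, 3 passed the adjusted threshold (edgeR, background 2.18% of genes called higher) and 18 had an unadjusted p under 0.05.

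RPN3, a lid subunit, had 277, 276, 286 and 259.9 RPM in Nsr1, against 83.1 to 179.6 RPM (median 110.4) in dPup2, a log2 difference of 1.01 ± 0.20 (adjusted p = 0.0088). SCL1, an alpha-ring subunit, had 369, 344, 444 and 366 RPM in Nsr1, against 172 to 273 RPM (median 232) in dPup2 (0.63 ± 0.15, adjusted p = 0.027). RPN13, a ubiquitin receptor of the base, had 285, 326, 304 and 232 RPM in Nsr1, against 148 to 206 RPM (median 187) in dPup2 (0.54 ± 0.15, adjusted p = 0.047). In all 3, the lowest Nsr1 library was above the highest dPup2 library. The smallest difference of the 32 was that of RPT1, at 0.09.

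RPN4, the transcription factor of these genes, had 75.7, 89.8, 70.4 and 47.3 RPM in Nsr1, against 23.3 to 47.4 RPM (median 32.1) in dPup2 (1.01 ± 0.18, adjusted p = 0.0043). Its lowest Nsr1 library was within the dPup2 range. UFD1, which works with Cdc48, the proteasome-binding ECM29 and the chaperone gene PBA1 were also higher, by 1.12, 0.97 and 0.79 on the log2 scale, so that 4 of the 25 related genes were called. RPN3 stayed called without any single Nsr1 library, while SCL1 and RPN13 did not. With DESeq2 7 members were called and with C-Swat as the reference 5, both given without the share of all genes called. A level is a share of the library's reads, so a change of other mRNAs cannot be told apart from a change of these.

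**Figure D4:**
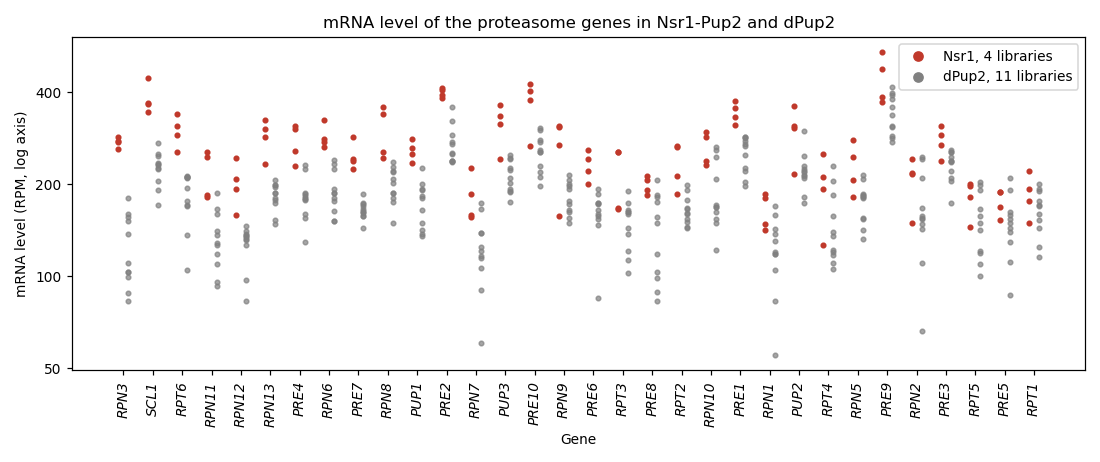
mRNA level (RPM, log axis) of each of the 32 genes in Nsr1 (red, 4 libraries) and dPup2 (grey, 11 libraries), ordered by log2 difference. RPN3, at the left, has 259.9 to 286 RPM in Nsr1 and 83.1 to 179.6 RPM in dPup2, and RPT1, at the right, differs least.

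In the other 33 intact strains no member was called for the mRNA level (edgeR). Up to 4 members of a strain were higher and up to 4 lower at an unadjusted p under 0.05, DESeq2 called 1 member in all of them together, and C-Swat as the reference gave 6. C-Swat itself had 0 members called against dPup2 (background 0.0394% higher and 0.138% lower), with 1 higher and 2 lower at an unadjusted p under 0.05. In Pub1 the related genes UMP1 (0.55 ± 0.15, adjusted p = 0.036) and CDC48 (0.79 ± 0.17, adjusted p = 0.009) were higher than in dPup2, against backgrounds of 3.19% higher and 2.47% lower.

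The mRNA levels in the Pub1 deletions moved in both directions, and the members called lower were genes of high tagged share in intact Pub1. RPN1, also of high share, was called lower in no deletion. T2 titled Trc9, which had the lowest tagged share of the deletions, had 0 members called lower. In ΔIDR_3, PRE8 had 90.2 and 104.5 RPM, against 209, 216, 139.8 and 169.6 RPM in intact Pub1 (-0.97 ± 0.19, edgeR adjusted p = 0.0078). PRE3 had 166 and 218 RPM in ΔIDR_3, against 339.9, 382, 277 and 319 RPM in intact Pub1 (-0.83 ± 0.20, adjusted p = 0.023). PRE4 (-0.73) and PRE1 (-0.64) were lower there too, 4 members in all against a background of 2.78%. In each of these, both deletion libraries were below the 4 intact libraries.

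Δ2 had 3 members lower (PRE3 -0.71, PRE4 -0.66 and PRE8 -0.64, background 4.63%), ΔIDR_1 had 2 (PRE4 -0.82 and PRE8 -0.77, background 2.70%) and ΔIDR_2 had 1 (PRE4 -0.66, background 3.89%). As a share of the members tested, the count in ΔIDR_2 was near its background. PRE4 had 166 and 178 RPM in Δ2, against 255, 269.8, 270.2 and 223 RPM in intact Pub1. UMP1, which was also highly tagged, was lower in these 4 deletions and in both T2 titles, with log2 differences of -0.67 to -0.98. In ΔIDR_1 it had 142 and 185 RPM, against 291 to 343 RPM in intact Pub1. Tagged reads count toward these levels, and the tagged share and the level come from the same libraries, so the falls of both are not independent of each other.

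These calls were not made with dPup2 as the reference: none of the members was then called in any Pub1 deletion, in either direction. Some differences kept most of their size. In ΔIDR_3, PRE1 had -0.60 ± 0.24 (edgeR adjusted p = 0.69) and PRE8 -0.61 ± 0.29 (adjusted p = 0.76) against dPup2, with unadjusted p-values of 0.022 and 0.046, while PRE3 had -0.37 and PRE4 -0.29. In Δ2, PRE3, PRE4 and PRE8 had -0.20, -0.17 and -0.24 against dPup2. UMP1, itself called higher in intact Pub1 than in dPup2, was not called against dPup2 either. In the deletions where it was lower than in intact Pub1, its differences from dPup2 were -0.11 (T2 titled Trc9) to -0.43 (ΔIDR_1). Their edgeR adjusted p-values were 0.775 to 0.961. PRE3 was at 173 to 259 RPM in dPup2, below every intact Pub1 library, though its difference between intact Pub1 and dPup2 did not pass (0.47 ± 0.17, adjusted p = 0.12). The calls also ended when 1 library was left out: the lower members of Δ2 without either of its libraries or intact Pub1 library 2 (0 called), those of ΔIDR_1 without either of its libraries or intact Pub1 library 2 (0, and 1 without any other intact library), and those of ΔIDR_3 without either of its libraries (0, and 2 without intact Pub1 library 2 or 3). The call in ΔIDR_2 was lost without any library except its own library 2, without which there were 2.

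**Figure D5:**
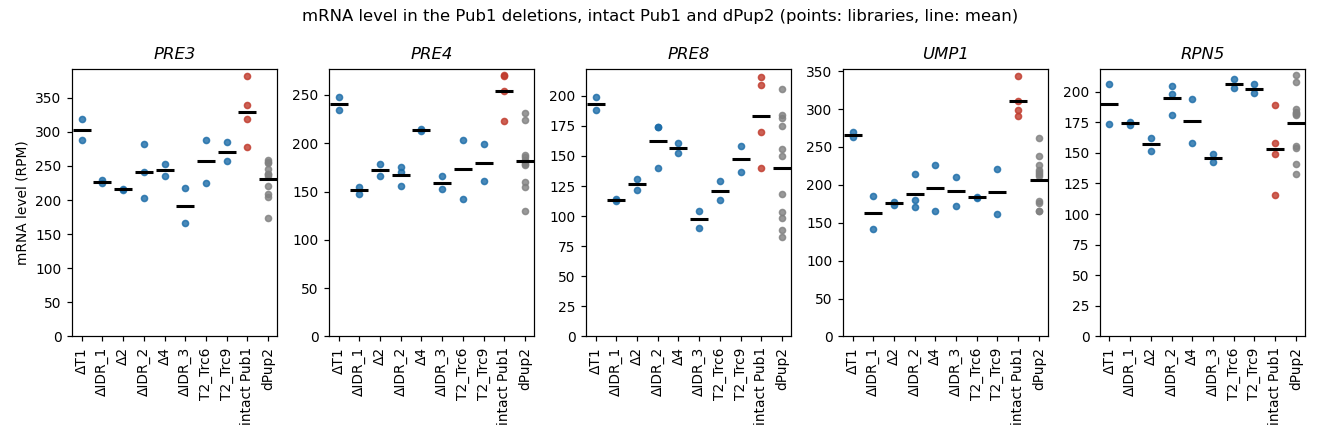
mRNA level (RPM) of PRE3, PRE4, PRE8, UMP1 and RPN5 in the Pub1 deletions (blue), intact Pub1 (red) and dPup2 (grey). Points are libraries and lines are means. PRE3 is at 166 and 218 RPM in ΔIDR_3, at 277 to 382 RPM in intact Pub1 and at 173 to 259 RPM in dPup2.

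Higher levels were found for other members. T2 titled Trc9 had 7 members higher than intact Pub1 (background 13.8%). PRE10, an alpha-ring subunit, had 328 and 353 RPM in T2 titled Trc9, against 204.5, 244, 191 and 174 RPM in intact Pub1 (0.75 ± 0.17, edgeR adjusted p = 0.0052). RPT3, a base ATPase, had 218 and 230.2 RPM, against 133, 152, 154 and 108 RPM in intact Pub1 (0.72 ± 0.17, adjusted p = 0.0066), and PRE9 had 396 and 395 RPM, against 211, 273.5, 252 and 239.9 RPM in intact Pub1 (0.71 ± 0.18, adjusted p = 0.0091). In all 3 the deletion libraries were above the intact ones. PUP2, SCL1, RPT6 and PRE2 were also higher, by 0.55 to 0.63, and RPN4 was higher at 69.5 and 74.3 RPM, against 50.9, 44.7, 37.3 and 20.7 RPM in intact Pub1 (0.81, adjusted p = 0.017). T2 titled Trc6 had 4 members higher (RPN2, PRE9, RPN7 and PRE10, background 12.9%), Δ4 had 3 (PRE10, RPN7 and RPT1, background 9.46%) and ΔT1 had 1 (PRE10, background 4.42%). As shares of the members tested, the counts of these last groups were near the backgrounds and say nothing particular about the members. The 7 calls of T2 titled Trc9 became 2 or 1 without 1 of its libraries and 4 without intact Pub1 library 3, those of T2 titled Trc6 became 1 without either of its libraries and 2 without intact Pub1 library 4, those of Δ4 became 0 without its library 1 and 1 without its library 2, and that of ΔT1 became 0 without either of its libraries.

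Outside Pub1, the deletions with a called member were few. In Puf4 T3, RPT3 had 393, 369.9 and 629.7 RPM, against 119.8 to 148 RPM in the 4 intact Puf4 libraries (1.58 ± 0.20, edgeR adjusted p = 0.0015), and RPN9, a lid subunit, had 493.4, 513 and 748 RPM, against 164 to 243 RPM in intact Puf4 (1.41 ± 0.20, adjusted p = 0.0026, background 1.03%). All 3 Puf4 T3 libraries were above the intact range for both. The 2 genes lie in the same part of chromosome IV (RPT3 1261681 to 1262967, RPN9 1322205 to 1323386). Whether other genes of that region moved with them was not tested. In Nab6 Δ4, PUP1, the beta subunit with the trypsin-like site, had 243 and 262 RPM, against 181, 176 and 146 RPM in intact Nab6 (0.71 ± 0.20, adjusted p = 0.032), and PRE6 was higher by 0.55 ± 0.17 (adjusted p = 0.046, background 6.91%). In Puf3 T5, RPN3 was lower, at 105, 119.8 and 72.1 RPM, against 93.2 to 187 RPM in intact Puf3 (-0.72 ± 0.21, adjusted p = 0.044, background 3.01%), with overlap. As shares of the members tested, the counts in Nab6 Δ4 and Puf3 T5 were near their backgrounds.

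Across strains, pairs of the 32 mRNAs had a higher median correlation than pairs of all genes, given here as a description without a test. Over the means of the 90 strain groups (log2 of RPM + 1), the median correlation between 2 members was 0.34, with 468 of 496 pairs above 0, against 0.14 between all pairs of 4436 genes, and over the 34 intact strains it was 0.37 against 0.09. RPN6, a lid subunit, followed the mean of the other members most closely (r = 0.81 over 90 groups), then SCL1 (0.76), and RPT5 least (0.25). RPN4 had r = 0.46. Of the 50 genes most like that mean, 16 were members. Libraries of 1 strain share depth and preparation, which these correlations include. Counting noise lowers the correlation of genes with few reads, and the pairs were not matched for level.

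The promoter element behind the name PACE was common to most of the genes. GGTGGCAAA, searched on both strands within 300 nt before the start codon, was present before 27 of the 32 genes, against 1.21% (72) of 5944 genes searched. It was not found before PRE5, PUP1, RPN10, RPN13 and RPN8 with these letters. The copies of PRE3 and PRE8, of the mRNAs called higher in Nsr1 (RPN3 and SCL1), of those with the largest difference in T2 titled Trc9 (PRE10 and RPT3) and of the related gene UBA1, the ubiquitin-activating enzyme, are shown with the element in capitals, which reads TTTGCCACC where it lies on the other strand.
PRE3, chrX:435035-435064, plus strand: aacggaatccGGTGGCAAAaaagggaaaag
PRE8, chrXIII:86840-86869, minus strand: agcttattaaGGTGGCAAAattgtccccgg
RPN3, chrV:196843-196872, plus strand: acgaaaaacaTTTGCCACCcaagaaagaga
SCL1, chrVII:475336-475365, minus strand: cacacaccaaTTTGCCACCgtaaggataga
PRE10, chrXV:1018855-1018884, minus strand: cctctaaatcGGTGGCAAAaataagaaagt
RPT3, chrIV:1261495-1261524, plus strand: ctgaaagtaaGGTGGCAAAatagtaaatct
UBA1, chrXI:39024-39053, plus strand: aaaaggtgcgGGTGGCAAAtaaaggtaaaa
A match of these letters is a description, and RPN13, called higher in Nsr1, was among the genes without one.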

How the data were processed

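Per the labels and the methods of the study, RNA of each strain was made into paired-end libraries. Us after the poly(A) tail were counted on the read from the 3′ end of the mRNA, and its mate was aligned. The authors demultiplexed with bcl2fastq and then by a barcode inside the adapter, removed adapter dimers with cutadapt, aligned with Bowtie2 to the S. cerevisiae genome R64 and counted with bedtools reads on the gene's strand that lay between 300 nt before and 100 nt after the termination site; tool versions are not given in the sources used here. The files deposited by the authors hold raw read counts per gene for 0 to 16 Us. The adapter carries a molecular identifier, and how it entered the counts is not stated, so intervals cover counting error only. Reads of a neighbouring gene on the same strand can fall in the counted region: a gene starts within 400 nt after the stop codon of 7 members (PRE9, PRE5, PRE10, PUP3, RPT3, RPN3 and RPN6).

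The 32 members and the 25 related genes were chosen with earlier results of these data known. RPM is reads per 1000000 reads of a library. The tagged share was tested with edgeR 4.0.16 (quasi-likelihood test, R 4.3.3) on reads with 4 to 13 Us, with the log of all reads of the gene as offset (0 reads replaced by 0.5), for genes with at least 10 tagged reads in the fit and a mean of at least 16 RPM. The mRNA level was tested with edgeR on all reads with TMM and filterByExpr. Each fit held 1 strain and its reference, p-values were adjusted by Benjamini-Hochberg over all genes tested at 0.05, and an SE is the log2 difference divided by the root of F. Intervals are exact (Clopper-Pearson, 95%), and a fold against 0 reads uses 3 reads over the group. The comparison of Δ2 with Δ4 was added after the data were seen. Alternatives used limma 3.58.1 and DESeq2 1.42.0. Python 3.11.15 with numpy 2.4.6, scipy 1.17.1, pandas 2.3.3 and matplotlib 3.10.9 did the rest, and the tests were tried on simulated data. All members could be named. Values by library are given for the 4 called members of highest and the 2 of lowest share in a strain with 5 or more called, the 3 largest changes in an mRNA comparison with 5 or more called, and RPN4, SEM1 and UMP1; further values by library were chosen after they were seen.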

Additional observations from a re-analysis of the deposited data

Results flagged for a closer look

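In 3 groups of 4 to 10 libraries, 1 library stood far from the others for the tagged share of the 32 genes together. Npl3 library 1 had 0.0209%, against 0% in the other 3 libraries. This was 1 tagged read of 10180 over the strain, and any single tagged read would be flagged in this way. The Puf3 dPup2 control had 0.0317% in library 1, against 0% to 0.00928% in its other 6 libraries. Puf5 T3 library 3 had 0.216%, against 0.0168% to 0.0477% in the others. The highest and lowest values of 17 such groups and of named genes gave 43 values tested. For continuous values chance marks about 1 in 20, a rate that does not hold for shares from so few tagged reads.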

How the results depend on the processing

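Counts of members called moved with the U lengths, the filter and the reference. Where no share of all genes called under the same setting stands beside a count, that count says nothing particular about the members. Counting 4 to 16 Us as tagged gave 9 members higher in Pub1 in place of 15, 0 in Sro9 in place of 4 and 0 in the other 32 RBP strains together in place of 4; it gave 21 lower in Δ4 in place of 11, 7 in ΔIDR_1 in place of 13, 8 in ΔIDR_2 in place of 14, 10 in ΔT1 in place of 5, and 13 lower and 37 higher in the deletions of other RBPs in place of 3 and 1. It also turned RPT5 in Puf4 to -0.018 (log2). This setting adds the reads of 16 Us, which made up 6.60% of the members' reads in dPup2 too. A filter of 1 tagged read tests genes that cannot otherwise enter, and gave 31 members in Pub1, 25 in Sro9, 61 in the other RBP strains, and 0 lower and 5 higher in the deletions of other RBPs. DESeq2 called 0 in Sro9 and limma 0 in ΔT1. A modification level of 0.1 gave 22 members in Pub1 and one of 0.3 gave 8, against 66.4% and 38.95% of expressed genes.

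For the mRNA level, DESeq2 called 7 members in Nsr1, 1 in the other 33 RBP strains and 1 in Δ4, C-Swat as the reference gave 5 in Nsr1 and 6 in the other strains, and no filter gave 1 lower in T2 titled Trc9. With dPup2 as the reference (an alternative chosen after seeing the data), 0 members were called in every Pub1 deletion, and PRE8 in ΔIDR_2 turned to 0.10 (log2), where -0.24 was not called either.

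Leaving out 1 library at a time gave 8 to 15 members higher for the tagged share in Pub1 and 0 to 4 in Sro9. Counts lower for the tagged share were 7 to 12 in T2 titled Trc6, 8 to 14 in T2 titled Trc9, 8 to 10 in Δ2, 8 to 11 in Δ4, 7 to 13 in ΔIDR_1, 8 to 14 in ΔIDR_2, 6 to 8 in ΔIDR_3 and 2 to 6 in ΔT1. For the mRNA level they were 1 higher in Nsr1 in each case, 1 to 5 higher and 0 to 1 lower in T2 titled Trc6, 1 to 7 higher and 0 to 1 lower in T2 titled Trc9, 0 to 3 higher in Δ4, 0 to 1 higher in ΔT1, and lower 0 to 2 in Δ2, 0 to 1 in ΔIDR_1, 0 to 2 in ΔIDR_2 and 0 to 4 in ΔIDR_3. A lone library left in a group is assumed to vary like the other group. The causes of these moves were not tested.

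With the library number as a replicate block, 7 members were lower in ΔIDR_1 and 10 in Δ2, against 11 and 10 with the same libraries and no block. Libraries of the same number shared little (correlation of their deviations 0.07 and 0.09), so the numbers were not taken as pairs. Shallow libraries limit single genes most: 16 reads of RPN1 in 1 Pub1 library cannot show a share below several percent.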
